A study of Mus musculus with 6 samples.

Results

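Histone genes were followed across arrays of BV2, an immortalised mouse line derived from microglia, which are macrophages resident in the brain. Of the 26423 probes on each array, 41 were taken as histone probes because their gene symbol in the array's platform annotation, ignoring case, began with HIST1H, HIST2H, HIST3H, HIST4H, H1F, H2AF or H3F or had the form H2AC, H2BC, H3C or H4C with a number. They stood for 37 of the 17778 genes named on the array, 30 of the replication-dependent clusters (33 probes) and 7 histone variants (8 probes). The cluster probes comprised 7 for the linker histone H1, 10 for H2A, 10 for H2B, 3 for H3 and 3 for H4. The variant probes comprised 3 for H1, 4 for H2A and 1 for H3. All 41 matched a gene of the RefSeq annotation of GRCm38.p6, whose current symbols are used below with the array's older name beside them at first mention.

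There were 3 groups of 2 arrays each: untreated control cells, cells given a lower dose of adenine for 1 h, and cells given a higher dose for 1 h. Adenine, a purine base, can be salvaged by cells to make nucleotides. Sample titles and the treatment protocol state doses of 20 and 80 µM, whereas the sample characteristics state 80 and 250 µM, so the doses are called lower and higher here. All groups shared the same cell line, growth medium and seeding. The design text gives 2 separate cultures for control and separate cultures for treated cells, without saying how many per dose. If arrays of a dose shared a culture, the p-values measure partly technical spread.

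Nucleosomes wrap DNA around an octamer of the core histones H2A, H2B, H3 and H4, and the linker histone H1 binds where DNA enters and leaves. Replication-dependent histone genes sit in clusters, lack introns and are transcribed mainly in S phase, and most of their mRNAs end in a stem-loop in place of a poly(A) tail. Variant histones are mostly encoded by single genes outside the clusters, have polyadenylated mRNAs and are made throughout the cell cycle. H2ax, which is phosphorylated at DNA breaks, is known to yield both kinds of mRNA. In dividing macrophage-like lines, the replication-dependent genes are a usual part of the proliferative programme. Whether the Cy5-labelled cDNA was primed from poly(A) is not given in the sources used here.

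Values are quantile-normalized spot intensities in arbitrary units, and changes are differences of log2 intensity with standard errors (SE) from limma, with 2 arrays per group and p-values adjusted by the Benjamini-Hochberg method over all 26423 probes. The threshold was an adjusted p of 0.05. Precision is limited by the small number of arrays. Array medians as deposited ranged from 125 to 170 units. Over probes above the median probe, the correlation was 0.9833 between the higher-dose arrays and 0.9225 to 0.9286 between these and the remaining 4 arrays. Of 10 measured microglia and macrophage markers, 9 lay above the median probe, among them Csf1r, Ptprc and Cd68, while Cx3cr1 did not. At the higher dose 3 of the 10, Aif1 (2.07), Itgam (0.77) and Fcgr3 (0.85, log2 change over control), rose and 0 fell, beside 17.1% of all probes above the median probe that passed in either direction. Of 6 fibroblast markers, 0 lay above it, as against 1 of 5 for astrocytes, 1 of 4 for neurons and 4 of 5 for oligodendrocytes, and 0 markers of these 4 cell types passed in limma at either dose.

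The coding sequences of replication-dependent genes within a family are nearly identical. A probe named for one gene can therefore also bind transcripts of its paralogs, and the gene behind each cluster value is uncertain for this reason. Probe sequences were not used here.

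At the higher dose, histone probes moved in both directions. Relative to control, 11 of the 41 rose and 5 fell, each probe for a different gene, which is 39.0% of the histone probes, beside 10.6% of all probes (5.55% higher and 5.06% lower). Of the 29 histone probes above the median probe, 51.7% passed, beside 17.1% of all such probes. The probes that rose came from H2A (5), H4 (2), H2B (1) and H3 (1) of the clusters and from the variants H2ax and H2aj, and those that fell came from H1 (2), H2B (2) and H2A (1) of the clusters. Among cluster probes 14 of 33 passed, and among variant probes 2 of 8. When only the control and higher-dose arrays were fitted, 8 histone probes rose and 1 fell, so most of the 5 falls lost their call. Both higher-dose arrays lay above both controls for 21 histone probes and below them for 11, against 28.9% and 31.4% of all probes.

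With no normalization, with arrays scaled to equal medians and after removal of each array's trend with gene span, all 16 changes kept their direction. In the other alternatives the direction could not change. There the log2 changes were the same as in the main fit, or the higher-dose arrays kept to 1 side of the controls. H1f1 was left out of the fit to probes above the median probe. Without control replicate 1 or 2, or without higher-dose replicate 1 or 2, the calls were lost, as were nearly all calls over all probes. These fits leave 1 array in a group, and the log2 changes of the 16 moved by at most 0.2611 in them. In bulk RNA, a change in the number of cells expressing a gene and a change in its mRNA per cell cannot be told apart.

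**Figure D1:**
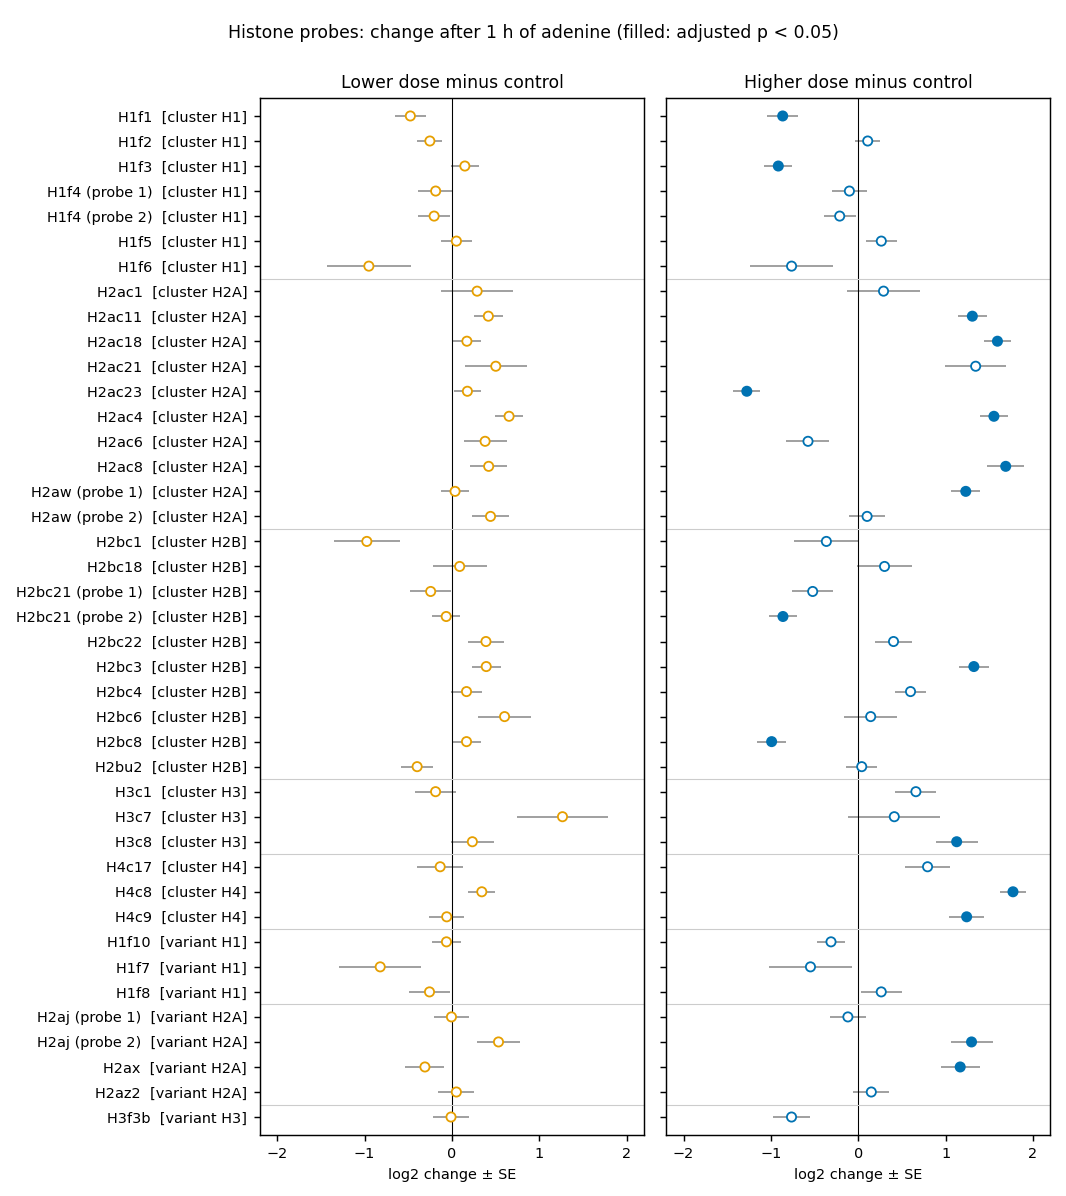
Log2 change (x axis, with SE as horizontal bars) of each of the 41 histone probes (y axis, grouped by class and family) at the lower and the higher dose relative to control. Filled points passed an adjusted p of 0.05. At the lower dose 0 points are filled, and at the higher dose 11 filled points lie right of 0 and 5 lie left of it.

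The 3 probes of histone H4, which with H3 forms the core tetramer of the nucleosome, all had higher values at the higher dose, and 2 of them passed. H4c8 (HIST1H4H) read 130 and 129 units in the control arrays, 175 and 154 at the lower dose and 456.5 and 429 at the higher dose. Both higher-dose arrays stood apart from the other 4. The rise was 3.41-fold over control (log2 1.77 ± 0.15, adjusted p = 0.0185), the largest among the 41 histone probes.

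H4c9 (HIST1H4I) read 2723 and 3316 units in the controls, 3243 and 2562 at the lower dose and 6787 and 7434 at the higher dose. Control and lower-dose arrays overlapped, and the higher-dose arrays lay above all of them. It rose 2.36-fold over control (1.24 ± 0.20, adjusted p = 0.0280). H4c17 (HIST1H4M) had 444 and 603 units at the higher dose and 261 and 341 in the controls (0.79 ± 0.26), at an adjusted p of 0.119.

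Of the 10 H2A probes of the clusters, 5 rose and 1 fell at the higher dose, and their median log2 change was 1.27 (0.83 with log2(value + 16)), beside -0.01 over all probes. H2A pairs with H2B in dimers that flank the H3-H4 tetramer. H2ac8 (HIST1H2AE) read 1186 and 1505 units in the controls, 1687 and 1893 at the lower dose and 3835 and 4832 at the higher dose. The groups did not overlap and followed the order of the doses. The lower-dose change did not pass (0.42 ± 0.21, adjusted p = 0.768), nor did that of any other histone probe. Such an order therefore rests on the array values alone. The change at the higher dose was 3.22-fold (1.69 ± 0.21, adjusted p = 0.0204).

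H2ac18 (HIST2H2AA1), a gene with a close duplicate in the cluster on chromosome 3, read 1552 and 1486 units in the controls, 1781 and 1641 at the lower dose and 4888 and 4297 at the higher dose. The controls and the lower dose lay close together, well under the higher dose. It rose 3.02-fold (1.59 ± 0.16, adjusted p = 0.0186). H2ac4 (HIST1H2AB) read 172 and 175 units in the controls, 252 and 296 at the lower dose and 538 and 481 at the higher dose. Its groups did not overlap either, and it rose 2.93-fold at the higher dose (1.55 ± 0.16, adjusted p = 0.0199).

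H2ac11 (HIST1H2AG) read 124 and 136 units in the controls, 174 and 173 at the lower dose and 291 and 354 at the higher dose, again in the order of the doses. It rose 2.47-fold (1.31 ± 0.17, adjusted p = 0.0208). H2aw (HIST3H2A) had 2 probes that disagreed. Probe 1 gave 1297 and 1250 units in higher-dose cells and 571.5 and 515 in the controls, a 2.35-fold rise (1.23 ± 0.16, adjusted p = 0.0218), whereas probe 2 gave 107.5 and 138 units in higher-dose cells and 100.5 and 128 in the controls (0.10 ± 0.21, adjusted p = 0.791).

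H2ac23 (HIST1H2AO) went the other way from the other called H2A probes. It read 33604 and 35829 units in the controls, 36932 and 41635 at the lower dose and 14616 and 14054 at the higher dose. The lower-dose arrays lay above both controls, and the higher-dose arrays lay far below all others. The fall was 2.42-fold (-1.28 ± 0.15, adjusted p = 0.0204), the largest fall among the histone probes. H2ac6 (HIST1H2AC) had 667 and 878 units at the higher dose and 1134 and 1146 in the controls, without passing (-0.58 ± 0.25, adjusted p = 0.201). Of the remaining H2A probes, H2ac21 (HIST2H2AB, 1.34 ± 0.35, adjusted p = 0.0739) and H2ac1 (HIST1H2AA, 0.29 ± 0.42), a form known from testis, were dim, with at most 20.0 units on any array.

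**Figure D2:**
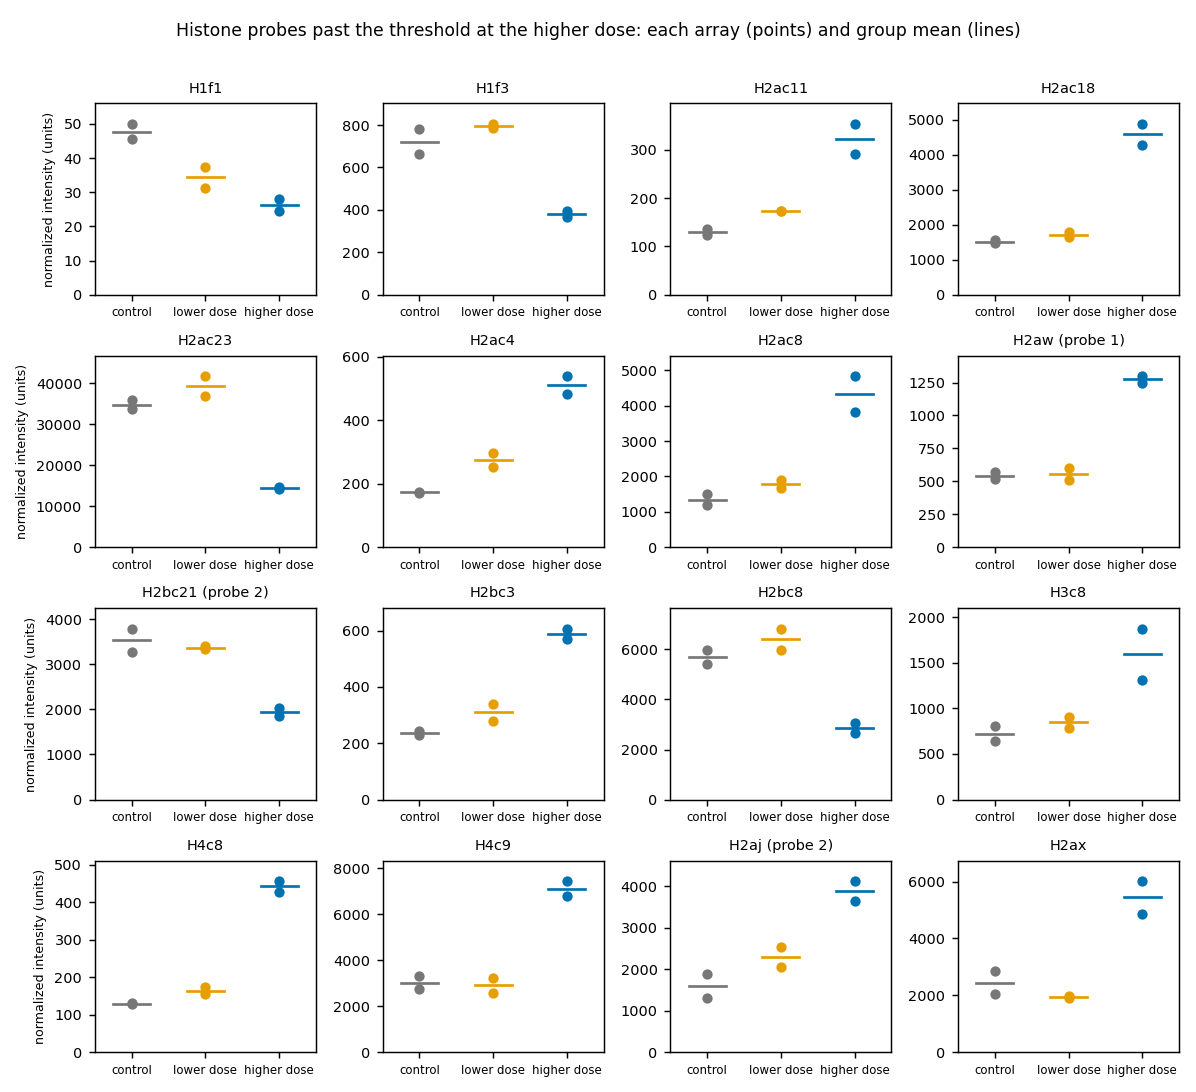
Normalized intensity (y axis, arbitrary units, from 0) of the 16 histone probes past the threshold at the higher dose, for each array (points) with the group mean (line), by group (x axis: control, lower dose, higher dose). In every panel the 2 higher-dose arrays lie on 1 side of both controls, above them in 11 panels and below them in 5.

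The 10 H2B probes of the clusters were mixed, with 1 that rose and 2 that fell and a median log2 change of 0.09, which was 0.0037 without control replicate 1 and 0.02 with arrays scaled to equal medians. H2bc3 (HIST1H2BB) read 242 and 228 units in the controls, 279.5 and 339 at the lower dose and 569 and 606 at the higher dose. The groups did not overlap. It rose 2.5-fold (1.32 ± 0.17, adjusted p = 0.0206). Its neighbour in the annotation is H2ac4, which rose as given above.

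H2bc8 (HIST1H2BG) read 5979 and 5424 units in the controls, 5987 and 6824 at the lower dose and 3073 and 2671 at the higher dose. The higher-dose arrays stood below the other 4. It fell 1.99-fold (-0.99 ± 0.17, adjusted p = 0.0308). H2bc21 (HIST2H2BE), an H2B gene known also to give polyadenylated mRNA, was measured by 2 probes of the same sign: probe 2 gave 2036 and 1841 units in higher-dose cells and 3783 and 3272 in the controls and fell 1.82-fold (-0.86 ± 0.16, adjusted p = 0.0362), and probe 1 gave 6566 and 5586 units in higher-dose cells and 10366 and 7290 in the controls (-0.52 ± 0.23, adjusted p = 0.220).

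H2bc4 (HIST1H2BC) had 28528 and 31636 units at the higher dose and 18443 and 21335 in the controls, groups that did not overlap, without passing (0.60 ± 0.18, adjusted p = 0.101). It passed in 4 of the 15 alternatives. These were values as deposited (log2 0.95, adjusted p = 0.0463), only probes above the median probe (adjusted p = 0.0202), log2(value + 16) (adjusted p = 0.0493) and a trended prior (adjusted p = 0.0137). In all but the first of these, more of all probes passed as well, at 41.0%, 18% and 21.2% in place of 10.6%. The other 5 H2B probes, for H2bc1, H2bc6, H2bc18, H2bc22 and H2bu2, had log2 changes from -0.36 to 0.40 and did not pass.

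H2ac8 and H2bc8 are neighbours transcribed away from each other, and their changes at the higher dose had opposite signs, 1.69 for H2ac8 and -0.99 for H2bc8, each past the threshold. A second pair of neighbouring H2A and H2B genes also had values of opposite sign, -0.58 for H2ac6 and 0.60 for H2bc4, of which neither passed. The neighbours H2ac4 and H2bc3, which were not found as a divergent pair with overlapping promoter windows, rose together, at 1.55 and 1.32. Opposite signs were therefore not general among neighbours. The other divergent pair, H2ac1 and H2bc1, was dim, at 0.29 and -0.36, and neither passed. The region between the starts of H2ac8 and H2bc8 is the promoter that both genes share, and it is printed here because the members of the pair moved apart. It spans chr13:23571221-23571399 (GRCm38.p6, plus strand, RefSeq), between H2ac8 on the minus strand and H2bc8 on the plus strand, and its 179 bases hold CCAAT on both strands, the octamer ATTTGCAT and the TATA box TATAAA, which are in capitals.
H2ac8-H2bc8: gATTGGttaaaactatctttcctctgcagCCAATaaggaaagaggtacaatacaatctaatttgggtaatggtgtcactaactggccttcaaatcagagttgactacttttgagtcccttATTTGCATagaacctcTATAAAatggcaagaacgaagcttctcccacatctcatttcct

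**Figure D3:**
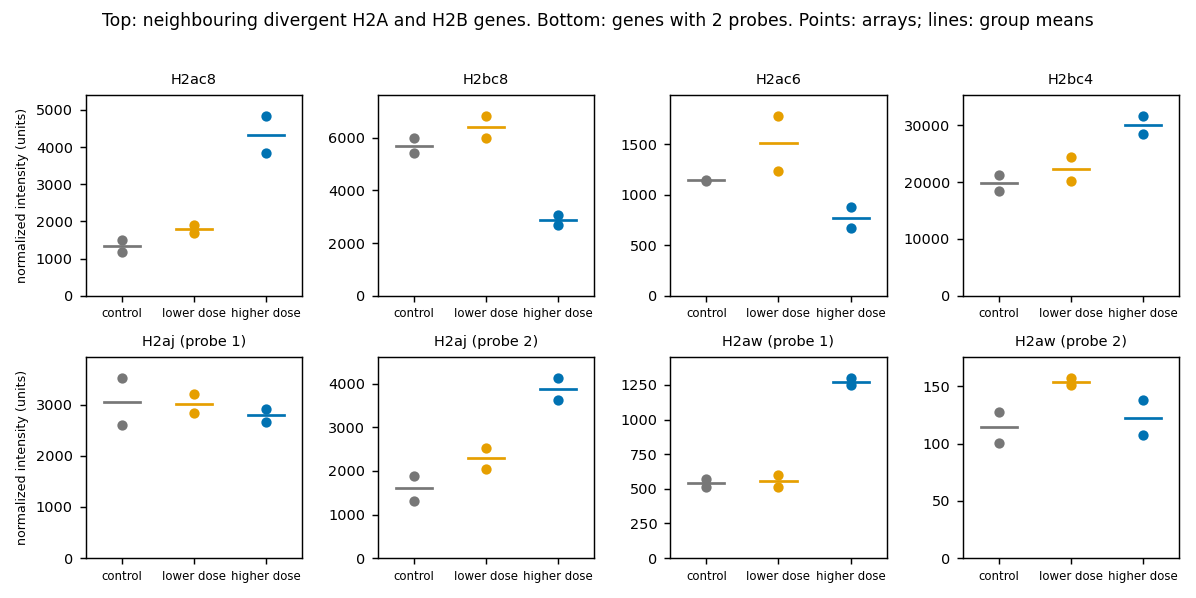
Normalized intensity (y axis, arbitrary units, from 0) by group (x axis: control, lower dose, higher dose) for each array (points) with the group mean (line). The top row shows the neighbours H2ac8 and H2bc8, with higher-dose arrays above the controls for H2ac8 and below them for H2bc8, and the neighbours H2ac6 and H2bc4, and the bottom row shows the 2 probes of H2aj and of H2aw, which disagree within each gene.

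Promoter windows from RefSeq (GRCm38.p6) were found for 32 of the 37 histone genes, and the 250 bases before each start were searched on both strands for the octamer ATTTGCAT, bound by POU-domain factors, for CCAAT and for TATAAA. None of these motifs holds another, but their ends may overlap. The octamer was in 5 of 9 H2A and 4 of 7 H2B windows of the clusters and in 0 of 6 H1 and 0 of 3 H4 windows, against 1.6% of all 32851 windows in the table. CCAAT was in 6 of 6 H1, 9 of 9 H2A and 7 of 7 H2B windows and in 0 of 3 H4 windows, against 33.8% of all windows. TATAAA was in 16 of 26 cluster windows and 1 of 6 variant windows, against 12.4% of all. A match is a run of letters and not a shown binding site. The 150 bases before the start are given, in the direction of transcription and with any of these motifs in capitals, for the H4 pair that rose, for H2ac18, which rose, and for H1f3, which fell. They lie at chr13:23530894-23531043 (plus strand) for H4c8, chr13:22041363-22041512 (minus strand) for H4c9, chr3:96245347-96245496 (plus strand) for H2ac18 and chr13:23554882-23555031 (plus strand) for H1f3.
H4c8: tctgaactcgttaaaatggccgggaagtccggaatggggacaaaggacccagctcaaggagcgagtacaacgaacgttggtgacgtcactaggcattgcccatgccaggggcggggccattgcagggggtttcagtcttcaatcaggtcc
H4c9: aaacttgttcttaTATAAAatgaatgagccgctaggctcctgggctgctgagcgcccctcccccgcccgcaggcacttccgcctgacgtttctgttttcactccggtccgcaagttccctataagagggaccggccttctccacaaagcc
H2ac18: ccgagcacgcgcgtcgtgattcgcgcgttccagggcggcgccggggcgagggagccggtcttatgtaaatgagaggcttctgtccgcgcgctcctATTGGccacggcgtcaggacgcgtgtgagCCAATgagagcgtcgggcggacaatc
H1f3: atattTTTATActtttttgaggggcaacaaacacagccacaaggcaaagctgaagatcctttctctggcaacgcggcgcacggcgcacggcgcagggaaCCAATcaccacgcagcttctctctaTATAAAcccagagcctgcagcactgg
Within these windows, H4c8 holds none of the motifs and H4c9 holds TATAAA, while both rose, and H1f3 holds CCAAT and TATAAA while H2ac18 holds CCAAT without TATAAA.

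The 3 H3 probes of the clusters had positive changes at the higher dose, and 1 passed. H3c8 (HIST1H3G) read 640.5 and 805.5 units in the controls, 906 and 787 at the lower dose and 1315 and 1871 at the higher dose. The higher-dose arrays differed between themselves more than the controls did, but lay above every other array. It rose 2.18-fold (1.13 ± 0.24, adjusted p = 0.0490), a call lost on values as deposited (adjusted p = 0.0722), with arrays scaled to equal medians (0.0926) and after removal of the trend with gene span (0.0552). H3c1 (HIST1H3A, 0.66 ± 0.23, adjusted p = 0.140) and the dim H3c7 (HIST1H3F, 0.41 ± 0.53) did not pass.

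Of the 7 probes of linker H1 genes in the clusters, 0 rose and 2 fell, with a median log2 change of -0.21, which was -0.03 without higher-dose replicate 1 and -0.40 without higher-dose replicate 2. H1f3 (HIST1H1D) read 780.5 and 661.5 units in the controls, 787 and 805 at the lower dose and 395 and 367.5 at the higher dose. The higher-dose arrays stood below all others, with close replicates. It fell 1.89-fold (-0.92 ± 0.16, adjusted p = 0.0324).

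H1f1 (HIST1H1A) was a dim probe below the median probe. It read 45.5 and 50 units in the controls, 31.3 and 37.5 at the lower dose and 24.5 and 28.0 at the higher dose, and the 3 groups did not overlap. The change at the higher dose was -0.86 ± 0.18 (adjusted p = 0.0435), and with a trended prior its adjusted p was 0.0725. H1f2 (HIST1H1C), one of the main H1 genes of somatic cells, gave 62409 and 57289 units as deposited at the higher dose and 45747 and 43380 in the controls, in reach of the scanner's ceiling, and its normalized change was 0.11 ± 0.14 (adjusted p = 0.666). Quantile normalization gave both higher-dose arrays the same value there, and the change was 0.42 with no normalization and 0.35 after scaling to equal medians, without passing in either. The other 4 probes, for H1f4 (2 probes), H1f5 and the testis gene H1f6, had changes from -0.76 to 0.26 and did not pass.

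Among the variants, the H2A variants H2ax and H2aj rose at the higher dose. H2ax (H2AFX) read 2042 and 2840 units in the controls, 1968 and 1918 at the lower dose and 4870 and 6009 at the higher dose. The lower-dose arrays lay just below the controls and the higher-dose arrays far above both. It rose 2.25-fold (1.17 ± 0.22, adjusted p = 0.0387). The adjusted p was 0.0534 without normalization between arrays and 0.0526 after scaling to equal medians.

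H2aj (H2AFJ) had 2 probes that disagreed, as did H2aw. Probe 2 read 1315 and 1888 units in the controls, 2048 and 2537 at the lower dose and 3636 and 4123 at the higher dose, in the order of the doses, and rose 2.46-fold (1.30 ± 0.24, adjusted p = 0.0362, and 0.0568 on values as deposited). Probe 1 gave 2671 and 2913 units in higher-dose cells and 2609 and 3513 in the controls, groups that overlapped (-0.12 ± 0.20, adjusted p = 0.749). The direction for this gene therefore rests on 1 of its 2 probes.

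H3f3b (H3F3B) encodes the replacement histone H3.3. It read 19465 and 25628 units in the controls, 21148 and 23231 at the lower dose and 11918 and 14525 at the higher dose, and the higher-dose arrays lay below all others. Its change of -0.76 ± 0.21 did not pass (adjusted p = 0.0817). It passed in 4 of the 15 alternatives. These were only probes above the median probe (adjusted p = 0.0102), log2(value + 16) (0.0315), a trended prior (0.00696) and removal of the span trend (0.0482). In each of these fits a larger share of all probes passed than in the main fit. H2az2 (H2AFV), a form of H2A.Z found at promoters, stood at 0.15 ± 0.21 (adjusted p = 0.682), and the linker variant H1f10 (H1FX) at -0.31 ± 0.16 (adjusted p = 0.287). The germ cell linkers H1f7 (H1FNT) and H1f8 (H1FOO) were dim, at -0.55 ± 0.47 and 0.26 ± 0.23.

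As classes, cluster probes had a median log2 change of 0.29 at the higher dose and variant probes one of 0.02, which was -0.05 with arrays scaled to equal medians and -0.07 after removal of the span trend. The median over all probes was -0.01. By array, the cluster median relative to the control mean was 0.24 and 0.28 at the higher dose and 0.00 in both controls, and the variant median was 0.00 and 0.06 at the higher dose and -0.14 and 0.14 in the controls. Each probe was centred on its control mean, so the control medians mirror each other. Their distance is not a measure of replicate spread, and the higher-dose medians cannot be judged against it. The cluster range, from -1.28 to 1.77, was wider than the distance between the class medians, and the difference between the classes was not tested.

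Gene span moved with the higher-dose change. Over 11350 probes above the median probe, the log2 change ran against gene span at Spearman's rho = -0.326 across probes, which are not independent, and at -0.194 over all 20336 probes with a span, and many cluster genes span under 1 kb. After removal of each array's trend with span, 15 of the 16 called histone probes still passed, all 16 kept their sign, and the cluster median was 0.20.

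At the lower dose, 0 of 41 histone probes passed in limma, beside 0.0114% of all probes, and 3 had an unadjusted p under 0.05, a share near that over all probes, 1681 of 26423. The smallest adjusted p among them was 0.764. All 10 H2A probes of the clusters had positive values (0.04 to 0.65, median 0.40), 9 of 10 with arrays scaled to equal medians, and for 8 of them both arrays lay above both controls, as did 18.5% of all probes. H2ac4 had the lowest p of these, at 0.65 ± 0.16 (adjusted p = 0.764). The cluster median was 0.17 and the variant median -0.04, or 0.12 for the variants on values as deposited, where the median of all probes was itself 0.22. By array, the cluster medians were 0.15 and 0.11 at the lower dose.

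Set against lower-dose cells, higher-dose cells had 9 histone probes up and 4 down, 31.7% of the 41, beside 13.7% of all probes (6.78% higher and 6.95% lower). On values as deposited the split was 6 up and 6 down. All 13 had also passed against control, a comparison that shares the higher-dose arrays, and the 3 that passed only against control were H1f1, H3c8 and H2aj. The change relative to the lower dose was 1.48 ± 0.22 for H2ax (adjusted p = 0.0232), 1.43 ± 0.15 for H4c8, 1.42 ± 0.16 for H2ac18 and -1.45 ± 0.15 for H2ac23 (each adjusted p = 0.0180). With any 1 of the 6 arrays left out, the 13 calls were lost, as were nearly all calls over all probes.

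Lists of related genes were set beside the histone probes at the higher dose. They were written with earlier results of these data known. Of 27 S phase and DNA replication genes measured, 13 fell and 1 rose, with a median of -0.77, and 26 of the 27 lay above the median probe, where 17.1% of all probes passed. The DNA ligase Lig1 fell to 7151 and 6215 units at the higher dose, against 17444 and 15553 in the controls (-1.30 ± 0.16, adjusted p = 0.0204), and the cyclin Ccne2, which drives entry into S phase and with Cdk2 activates histone transcription, fell 2.56-fold (-1.36 ± 0.23, adjusted p = 0.0296). Cdk2 itself fell (-1.23), as did the cyclin Ccna2 (-1.05), the helicase subunits Mcm3, Mcm4, Mcm5, Mcm6 and Mcm7 (-1.09 to -0.88), the licensing factor Cdt1 (-0.91), the ribonucleotide reductase subunit Rrm1 (-0.92), the flap nuclease Fen1 (-0.88) and the single-strand binding protein Rpa1 (-1.05). Gins2, of the replicative helicase, was the 1 that rose (1.30 ± 0.17, adjusted p = 0.0213).

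Of 19 genes of histone mRNA transcription and processing, 1 rose and 3 fell relative to control (median -0.46). This share is near the 17.1% of all probes above the median probe, where 18 of the 19 lay. Relative to the lower dose, 2 rose and 7 fell, beside 22.1% of all such probes. Lsm10, a subunit of the U7 particle that helps cut histone pre-mRNA, rose 1.91-fold, with 7863 and 7197 units at the higher dose and 4063 and 3820 in the controls (0.93 ± 0.15, adjusted p = 0.0275). The cleavage and polyadenylation genes Fip1l1 (-1.86 ± 0.17, adjusted p = 0.0185) and Cpsf2 (-0.98 ± 0.16, adjusted p = 0.0300) and the cap-binding gene Ncbp1 (-1.13 ± 0.21, adjusted p = 0.0369) fell. Slbp, which binds the histone stem-loop, stood at -0.05 ± 0.16 (adjusted p = 0.873), and Npat, the coactivator of histone transcription, at -0.58 ± 0.18 (adjusted p = 0.111). Npat did pass relative to the lower dose (-0.94 ± 0.18, adjusted p = 0.0361).

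Of 24 histone chaperone genes, 1 rose and 3 fell (median -0.38), again a share near that 17.1%, since 22 of the 24 lay above the median probe. Anp32e, which removes H2A.Z from chromatin, fell 2.17-fold (-1.12 ± 0.17, adjusted p = 0.0258), and falls were also found for the chaperone gene Set (-1.13 ± 0.20, adjusted p = 0.0318) and the H2A-H2B chaperone Nap1l4 (-0.83 ± 0.16, adjusted p = 0.0413). Hjurp, the chaperone of the centromeric H3 variant CENP-A, rose 2.41-fold from dim values (1.27 ± 0.26, adjusted p = 0.0456). Of 4 other histone and histone-fold genes measured, Cenpa itself stood at 0.62 ± 0.15 (adjusted p = 0.0594), and Hp1bp3, which is related to linker histones, fell 1.97-fold (-0.97 ± 0.16, adjusted p = 0.0296).

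**Figure D4:**
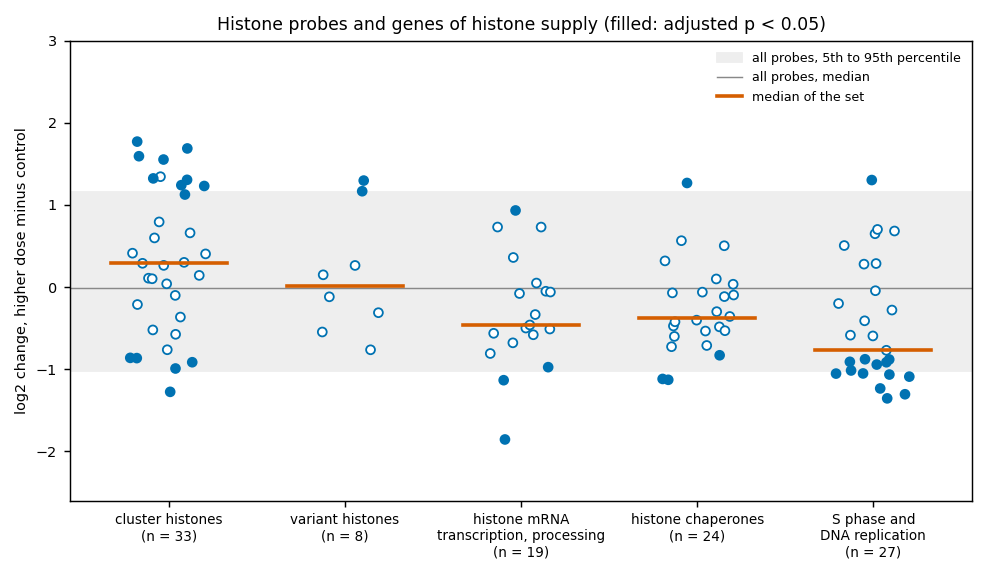
Log2 change at the higher dose relative to control (y axis) for the 33 cluster and 8 variant histone probes and for the genes of 3 lists (x axis), each point 1 probe or gene, filled where the adjusted p was under 0.05, with the median of each set as a line. The band spans the 5th to 95th percentile of all probes, -1.03 to 1.16. Set medians run from 0.29 for cluster histones to -0.77 for S phase and DNA replication genes.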

How the data were processed

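Cy5-labelled cDNA was hybridised to Phalanx mouse OneArrays, as the labels' protocols state. In the deposited table each value is a linear spot intensity, a whole number from -21 to 65489, and values below 0 show that background was subtracted. RMA is named in the submitters' processing notes, but the deposited intensity medians differ between arrays. Values were therefore quantile-normalized, values under 1 were set to 1 and log2 was taken. Groups came from sample titles. A linear model with a mean for each group was fitted to all 6 arrays with limma 3.58.1 (R 4.3.3), leaving 3 residual degrees of freedom, and moderated two-sided tests were taken, and figures were drawn with matplotlib 3.10.9. The fit was tested on simulated data. The members, lists and tests were chosen with earlier results of these data known. Named are all histone probes past the threshold in any comparison, the brightest and most changed probe of each class and family, H2afx, H2afv, H3f3b and H1fx in any case, and members of the other lists past the threshold; further members are given by value for completeness. H2afz, H2afy, H3f3a and H1f0, also to be named, are not among the probes used here. The brightest probe stood for each gene of the other lists. Symbols were found for 20377 of 26423 probes in an old platform annotation and updated through RefSeq. Alternatives were no scaling or equal medians, only probes above the median probe, log2(value + 16), a replicate block, array weights, a trended and robust prior, a fit to the compared groups alone, each array left out, and removal of each array's trend with gene span. Deviations from group means correlated at 0.167 between higher dose and control, -0.0349 between lower dose and control and -0.0620 between the doses. Each group gives only the difference between its own arrays, so these values cannot exclude that replicate numbers paired the arrays.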

Additional observations from a re-analysis of the deposited data

How the results depend on the processing

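At the lower dose, 0 histone probes passed under each of the 15 alternatives. At the higher dose against control, the count of 16 was 14 to 19 under other scalings, filters, priors and weights, 9 with only the 2 groups compared and 0 with the replicate number as a block, and it ranged from 0 to 9 when 1 array was left out, fits with 2 residual degrees of freedom. The called probes had adjusted p from 0.0517 to 0.0766 under the block, and replicate numbers share no stated batch. A fit without 1 array of the group not compared equals the fit to the 2 groups alone, so these are not separate checks. Against the lower dose, the count of 13 was 7 with the replicate block, 20 with a trended and robust prior, 0 with only the 2 groups compared and 0 in each fit without 1 array. The histone count of 16 was 19 among the 29 probes above the median probe, 18 with log2(value + 16) and 19 with a trended prior, while the share of all probes called was 41.0%, 18% and 21.2% in these fits, in place of 10.6%, so the histone count stood out less from the background there. Over all probes, 2803 calls at the higher dose became 11 with the replicate block, 1584 with 2 groups, 5 to 1584 without 1 array, 5423 among brighter probes, 4762 with log2(value + 16) and 5602 with a trended prior, 3629 between the doses became 1395, 7, 6 to 25, 6058, 5662 and 6366, and 3 at the lower dose became 0 with equal medians, the block, array weights or 2 groups and 0 to 9 without 1 array.

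The cluster median at the higher dose (0.29) was 0.37 on values as deposited, 0.60 among probes above the median probe, 0.16 with log2(value + 16), 0.20 without the span trend and 0.21 to 0.32 without 1 array. That at the lower dose (0.17) was 0.32 on values as deposited, 0.0639 with equal medians, 0.13 with log2(value + 16) and 0.10 to 0.17 without 1 array. The variant median at the lower dose (-0.04) was 0.12 on values as deposited and -0.21 to 0.0254 without 1 array, and at the higher dose (0.02) it was 0.0023 to 0.15 without 1 array. H1f2 at the higher dose was -0.0132 without the span trend, and H2az2 between the doses (0.10) was -0.0875 on values as deposited and -0.13 to 0.3322 without 1 array, the lowest without lower-dose replicate 1. The cause of these moves was not tested. Probes below the median probe, 12 of the 41, and those near the ceiling have compressed or noisy changes.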
